A study of Mus musculus with 12 samples.

Results

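Histone genes were followed through 4 treatment groups on expression arrays of nucleus accumbens, the ventral part of the mouse striatum that serves reward. The genes were those whose symbol in the probe annotation of the array names a core or linker histone, and a gene was kept when a probe of it was detected on at least 3 of 12 arrays, with a detection p under 0.05. Of 78 histone genes with 112 probes on the array, 56 genes with 80 probes were kept, among 12732 detected genes in all. Major histocompatibility genes, whose symbols also begin with H2, were left out. Detection over all groups chose the genes, and 5 of the 56 (H2ac1, H2ac4, H2al2a, H2bc8 and H4c3) would have missed the rule without the arrays of 1 group.

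All mice were C57BL/6J, 8 to 10 weeks old. Each received 15 daily intraperitoneal injections and was killed 1 h after the last. The saline group was given 15 saline injections. The acute group was given 14 of saline followed by 1 of cocaine-HCl at 20 mg/kg. The repeated group was given 7 of saline and then 8 of cocaine at that dose. The withdrawal group was given 7 of cocaine, then 7 of saline, then a single cocaine challenge. Every group had 3 arrays, each with RNA pooled from bilateral punches of 4 mice, so differences between mice within a pool were averaged. The punches held every cell type of the region, and in such bulk RNA fewer cells of a type and less RNA per cell cannot be told apart. The series title ties the design to sensitization of gene responses by earlier cocaine, and the 3 cocaine groups differ in that history while sharing a last cocaine dose.

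Core histones H2A, H2B, H3 and H4 form the octamer around which DNA is wrapped in a nucleosome, and the linker histone H1 binds where DNA enters and leaves it. The clustered, replication-dependent copies are transcribed mainly in S phase, and most of their mRNAs end in a conserved stem-loop in place of a poly(A) tail. Variants such as H3.3, encoded by H3f3a and H3f3b, and H2A.Z, encoded by H2az1 and H2az2, are made outside S phase from polyadenylated mRNAs and are the main supply of new histone in neurons, which do not divide. The labels do not name the primer used in labelling, and how much of a clustered gene's signal came from polyadenylated transcripts was not tested.

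The members comprised 16 clustered H2A genes, 11 H2B, 8 H3 and 11 H4 genes, 3 linker genes (H1f2, H1f5 and H1f10), 6 variants (H2aj, H2ax, H2az1, H2az2, H3f3a and H3f3b) and H2al2a, named for the germ line. By the RefSeq gene table, 38 members lie on chromosome 13 and 9 on chromosome 3, the sites of the main histone clusters, and 4 lie on chromosome 11. Of the 56, 46 were detected on all 12 arrays. The members nearest the rule's threshold from inside were H2ac4 and H2bc8, detected on 3 arrays each. Nearest from outside were H1f3, H2ac8 and H4c2, detected on 2 arrays each, and 17 of the 22 genes left out were detected on 0 arrays.

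Promoter windows from RefSeq (build GRCm38.p6, 250 bases before to 50 after the annotated start) were matched by symbol for 50 of the 56 members, and the others were H2ax, H2bc21, H2bc4, H3c1, H3c7 and H4c14. Of these windows, 3 are shown because their genes carry results below: H4c4 was higher after cocaine, H4c11 was highest in the acute group, and H2ac7 was among the H2A genes lower after repeated cocaine and faces its partner H2bc7 across the same stretch. Capitals mark the CCAAT box, read as CCAAT or, on the other strand, ATTGG, and the TATA box TATAAA.
H4c4 (chr13:23581318-23581617, GRCm38.p6, plus strand): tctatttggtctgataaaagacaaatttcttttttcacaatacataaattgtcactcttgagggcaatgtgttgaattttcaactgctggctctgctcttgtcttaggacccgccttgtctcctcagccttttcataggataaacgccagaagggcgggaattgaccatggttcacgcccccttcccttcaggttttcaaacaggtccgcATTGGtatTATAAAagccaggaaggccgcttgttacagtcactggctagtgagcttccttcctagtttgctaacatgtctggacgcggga
H4c11 (chr13:21734784-21735083, GRCm38.p6, plus strand): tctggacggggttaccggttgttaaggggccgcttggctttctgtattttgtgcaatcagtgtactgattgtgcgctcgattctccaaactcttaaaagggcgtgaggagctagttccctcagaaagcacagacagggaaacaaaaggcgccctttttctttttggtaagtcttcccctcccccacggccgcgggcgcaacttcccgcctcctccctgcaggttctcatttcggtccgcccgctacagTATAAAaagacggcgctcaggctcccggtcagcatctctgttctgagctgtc
H2ac7 (chr13:23574131-23574430, GRCm38.p6, plus strand): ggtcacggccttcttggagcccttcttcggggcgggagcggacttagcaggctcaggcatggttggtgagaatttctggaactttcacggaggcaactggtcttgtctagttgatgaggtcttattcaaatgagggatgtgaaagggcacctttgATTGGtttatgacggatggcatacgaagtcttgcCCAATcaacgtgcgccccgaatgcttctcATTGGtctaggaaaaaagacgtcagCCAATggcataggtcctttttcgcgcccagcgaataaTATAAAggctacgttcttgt

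Both strands were searched for exact letters, and a match is a description of the sequence only. In the H4c4 window the CCAAT match began 40 bases before the annotated start and the TATA match 32 bases before it. The TATA match began only 2 bases before the annotated start in the H4c11 window, and 30 bases after it in the H2ac7 window. The H2ac7 window held 4 CCAAT matches, beginning 95, 61, 32 and 7 bases before the start. CCAAT was found in 16 of 16 H2A windows, 10 of 10 H2B windows and 6 of 6 H3 windows, but in 3 of 10 H4 windows, against 37.4% of all 32851 windows in the table. TATAAA was found in 8 of 10 H4 and 10 of 16 H2A windows, against 13.6% of all windows. The octamer ATTTGCAT, known for its place in H2B promoters, was in 4 of 10 H2B and 6 of 16 H2A windows, against 1.74% of all windows. The letters TGACG, the shorter site within the cyclic AMP response element, were in 24 of 51 windows of members (1 H2B gene has 2 windows), against 20.8% of all. The full element TGACGTCA, which contains them, was in 4 of the 51, against 1.79% of all. These 4 were the windows of H2ac11, H2bc11, H4c1 and H4c8, and those of H2ac11 and H2bc11 overlap by 252 bases. In 4 facing pairs of members the windows overlap, so a match in a shared stretch is counted for both genes in all these counts. The AP-1 letters TGANTCA were in 2 of the 51, against 7.81% of all windows.

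Each array detected 22189 to 23803 of its 45281 probes, and correlations between arrays ran from 0.973 to 0.992. Of the listed markers of medium spiny neurons, the main neurons of this region, 10 of 12 were detected. Levels are log2 of background-subtracted intensity with a floor of 10 intensity units, which is 3.32 on that scale, and they compare arrays for 1 probe, never probes with each other. Differences are from limma's moderated test over all 12 arrays, with standard errors (SE) and 95% intervals, and each group has n = 3 arrays. P-values were adjusted over all 25478 detected probes by the Benjamini-Hochberg method. The series text made its gene lists from changes of 1.3-fold or more whose unadjusted p was under 0.05, and calls under them are called here the series criteria. The acute, repeated and withdrawal groups are each set against the same 3 saline arrays, so their differences from saline are not independent.

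No histone gene passed the adjusted threshold in any comparison. The lowest adjusted p of a member by limma was 0.750 in acute against saline, 0.393 in repeated against saline and 0.538 in withdrawal against saline. It was 0.878 in repeated against acute, 0.848 in withdrawal against acute and 1 in withdrawal against repeated. An adjusted p under 0.05 was reached by 0% of detected genes in 5 of these 6 comparisons and by 0.00785% in repeated against acute. At an unadjusted p under 0.05, limma gave 4 members in acute against saline (3.75% of all genes), 5 in repeated against saline (8.59%) and 4 in withdrawal against saline (7.15%). It gave 4 in repeated against acute (4.80%), 2 in withdrawal against acute (5.07%) and 2 in withdrawal against repeated (1.93%). A moderated F test for any difference among the 4 groups gave 2 members at an unadjusted p under 0.05, where 5.42% of all genes did, and 0 after adjustment. The values that follow are therefore descriptions of these arrays.

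A pair of clustered genes on chromosome 13, H3c1 and H4c4, lay higher on every one of the 9 cocaine arrays than on any saline array. H3c1 encodes an H3 protein of the replication-dependent kind, and its log2 level was 3.77, 3.71 and 4.53 on the saline arrays. It was 4.75, 5.16 and 4.85 on the acute arrays, 5.30, 4.91 and 5.01 on the repeated arrays and 4.91, 5.12 and 5.19 on the withdrawal arrays. The 3 cocaine groups overlapped one another and none overlapped saline, where only 1 of 3 arrays detected the probe while all 9 cocaine arrays did.

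The difference of H3c1 from saline was 0.92 ± 0.22 (SE, limma, adjusted p 0.884) in acute mice, a measured 1.89-fold higher intensity against a saline group with 1 detected array of 3. It was 1.07 ± 0.22 in repeated mice (adjusted p 0.393) and 1.07 ± 0.22 in withdrawal mice (adjusted p 0.538), each a measured 2.10-fold. The 95% intervals ran from 0.44 to 1.40, from 0.59 to 1.55 and from 0.59 to 1.55. Between cocaine groups H3c1 differed by 0.15 ± 0.22 or less.

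H4c4, an H4 gene whose promoter window is shown above, was detected on all 12 arrays. Its log2 level was 4.98, 4.74 and 4.33 on the saline arrays and 5.37, 5.31 and 5.47 on the acute arrays. It was 5.21, 5.30 and 5.38 on the repeated arrays and 5.36, 5.36 and 5.27 on the withdrawal arrays. The 9 cocaine values spanned a narrower range than the 3 saline values and lay above them all. The difference from saline was 0.70 ± 0.15 in acute mice (SE, limma, adjusted p 0.750), 0.61 ± 0.15 in repeated mice (0.423) and 0.65 ± 0.15 in withdrawal mice (0.538), or 1.62-fold, 1.53-fold and 1.56-fold higher.

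These were 2 of 56 members with all cocaine arrays above all saline arrays, a pattern shown by 0.730% of all detected genes, and 0 members showed the opposite, which 1.17% of genes did. Both genes were dim, and each has 1 detected probe, so no second probe bears on them. Without the background subtraction the H3c1 differences from saline were 0.24, 0.29 and 0.29 and those of H4c4 were 0.24, 0.21 and 0.22, in the same direction but under 1.3-fold. Clustered histone copies are nearly identical in their coding sequence, the probe sequences were not used here, and a signal from other copies cannot be told apart.

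**Figure D1:**
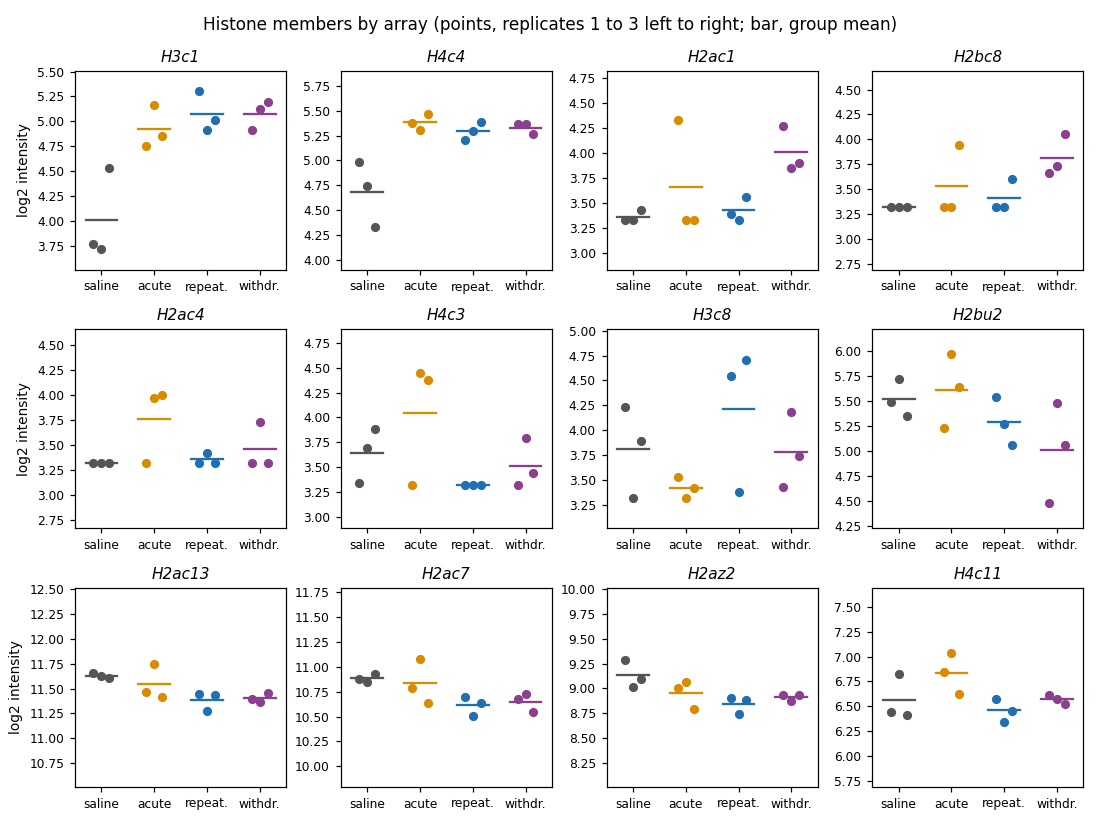
Log2 background-subtracted intensity (vertical axis, a span of 2 log2 units in every panel) of 12 histone genes by treatment group (horizontal axis). Points are the 3 arrays of a group in replicate order and bars their mean. H3c1 and H4c4 lie above every saline array on all 9 cocaine arrays.

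Beside those, the series criteria were met against saline by 3 genes near the detection limit. In acute against saline 3 members met them, H3c1, H4c4 and H2ac4, all higher, where 2.14% of all genes did in either direction and 1.04% were higher. In repeated against saline 2 members met them, H3c1 and H4c4, both higher (3.74% of all genes, 1.69% higher). In withdrawal against saline 4 members met them, H3c1, H4c4, H2ac1 and H2bc8, all higher (2.82% of all genes, 1.58% higher). No member met them as lower than saline in these 3 comparisons, where 1.10%, 2.05% and 1.24% of all genes were lower.

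H2ac1 encodes an H2A best known from testis, and its level was 3.32, 3.32 and 3.42 on the saline arrays. It was 4.33, 3.32 and 3.32 on the acute arrays and 3.39, 3.32 and 3.56 on the repeated arrays. On the withdrawal arrays it was 4.27, 3.85 and 3.90, above every saline and repeated array and within the range of the acute values. The probe was detected on all 3 withdrawal arrays and on 0 saline and 0 repeated arrays, so the fold is a bound, at least 1.07-fold higher than saline and at least 1.14-fold higher than repeated. The measured differences were 0.65 ± 0.24 (SE, limma, adjusted p 0.626) and 0.58 ± 0.24 (adjusted p 1).

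H2bc8, a clustered H2B gene, stood at the floor of 3.32 on all 3 saline arrays. It read 3.32, 3.32 and 3.94 on the acute arrays and 3.32, 3.32 and 3.60 on the repeated arrays. On the withdrawal arrays it read 3.66, 3.73 and 4.06, above all saline and repeated values. It was detected on only 2 withdrawal arrays and 1 acute array, and the bound on its fold was under 1, so no fold is given. The measured differences of withdrawal were 0.49 ± 0.18 from saline (SE, limma, adjusted p 0.626) and 0.40 ± 0.18 from repeated (adjusted p 1).

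H2ac4, a clustered H2A gene, also stood at 3.32 on all saline arrays and read 3.32, 3.97 and 4.00 on the acute arrays. It read 3.32, 3.42 and 3.32 on the repeated arrays and 3.32, 3.73 and 3.32 on the withdrawal arrays. Acute replicate 1 was at the floor like saline, so the groups overlapped, and no fold is given because saline detected it on 0 arrays and the bound was under 1. The measured difference of acute from saline was 0.44 ± 0.18 (SE, limma, adjusted p 1). H2ac1, H2ac4 and H2bc8 were kept by the detection rule on 4, 3 and 3 arrays, all of them cocaine arrays, so that rule itself favoured values above saline for all 3 genes.

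**Figure D2:**
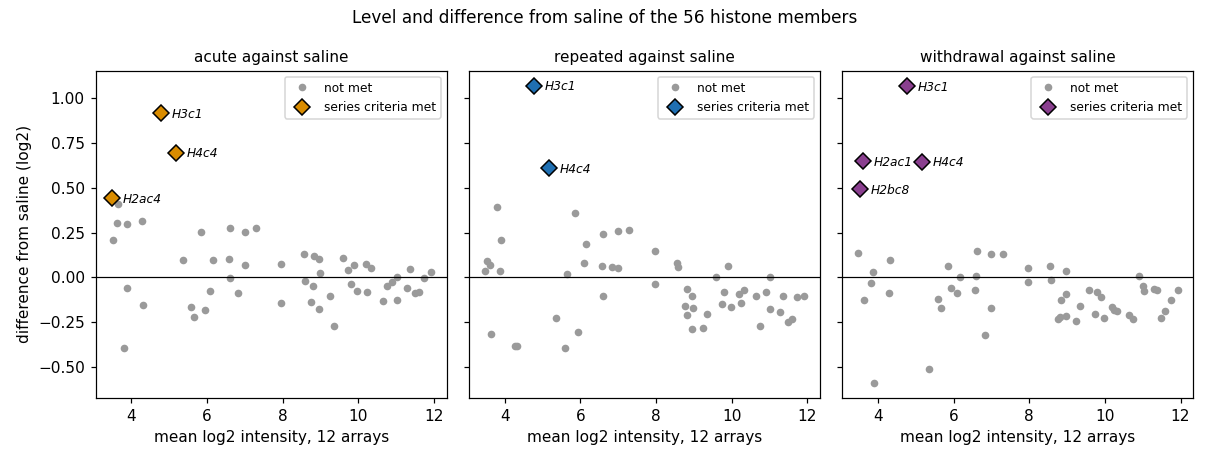
Difference from saline (log2, vertical axis) against mean log2 intensity over 12 arrays (horizontal axis) for the 56 histone members in acute, repeated and withdrawal mice. Diamonds meet the series criteria and are named; all of them lie at the dim end, while the brighter members lie mostly a little below 0 in repeated and withdrawal mice.

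Between the cocaine groups, 3 members met the series criteria in repeated against acute, 1 in withdrawal against acute and 2 in withdrawal against repeated. The share of all genes meeting them was 2.41%, 2.62% and 1.34%. In withdrawal against repeated both were higher, H2ac1 and H2bc8, where 0.778% of all genes were higher and 0.566% lower. Both were detected on 0 repeated arrays and kept mainly through withdrawal arrays, so the detection rule favoured that direction too. H2ac4 and H4c3, which met the criteria as lower in repeated than in acute mice, were likewise detected on 0 repeated arrays. In repeated against acute H3c8 was higher, where 1.36% of all genes were, and H4c3 and H2ac4 were lower, where 1.05% were. In withdrawal against acute H2bu2 was lower, where 1.23% of all genes were, and no member was higher, where 1.40% were.

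H3c8, a clustered H3 gene, read 4.24, 3.32 and 3.89 on the saline arrays and 3.53, 3.32 and 3.42 on the acute arrays. It read 4.55, 3.38 and 4.71 on the repeated arrays and 3.42, 4.18 and 3.74 on the withdrawal arrays. Repeated replicate 2 lay among the acute values, so the groups overlapped. The acute group detected H3c8 on 0 arrays and the repeated group on 2 of 3. By group means repeated was at least 1.27-fold higher, a bound that includes an undetected repeated array and carries no sampling error. The measured difference was 0.79 ± 0.35 (SE, limma, adjusted p 0.878).

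H4c3, a clustered H4 gene, read 3.34, 3.70 and 3.88 on the saline arrays and 3.32, 4.45 and 4.37 on the acute arrays. It stood at 3.32 on every repeated array and read 3.32, 3.79 and 3.44 on the withdrawal arrays. The high values came from acute replicates 2 and 3, and acute replicate 1 was at the floor with the repeated arrays. The acute group detected H4c3 on 2 of 3 arrays. By group means acute was at least 1.17-fold higher than repeated, a bound that includes an undetected acute array and carries no sampling error. The measured difference of repeated from acute was -0.73 ± 0.27 (SE, limma, adjusted p 0.878).

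H2bu2 lies outside the main clusters, on chromosome 11, and was detected on all 12 arrays. Its level was 5.49, 5.72 and 5.35 on the saline arrays and 5.23, 5.97 and 5.64 on the acute arrays. It was 5.54, 5.27 and 5.06 on the repeated arrays and 4.48, 5.48 and 5.06 on the withdrawal arrays. Withdrawal replicate 1 was the lowest array of all, and withdrawal replicate 2 lay within the acute range. Withdrawal was 1.52-fold lower than acute, a difference of -0.61 ± 0.26 (SE, limma, adjusted p 0.848), and differed from saline by -0.51 ± 0.26 (adjusted p 0.656).

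H4c11 missed the fold limit by little. Its level was 6.45, 6.82 and 6.41 on the saline arrays and 6.85, 7.04 and 6.62 on the acute arrays. It was 6.57, 6.35 and 6.45 on the repeated arrays and 6.61, 6.57 and 6.53 on the withdrawal arrays. All acute values lay above all repeated and withdrawal values, while saline replicate 2 lay within the acute range. Repeated differed from acute by -0.38 ± 0.14 (SE, limma, adjusted p 0.878). Counted over all members, groups did not overlap for 2 members in repeated against acute (10.7% of all genes), 2 in withdrawal against acute (9.69%) and 4 in withdrawal against repeated (7.36%).

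The brighter histone genes differed little, and most stood slightly lower after repeated cocaine and after withdrawal and challenge. Among the 21 members with a mean log2 level of at least 9, 18 were lower in repeated than in saline mice and 20 in withdrawal than in saline mice, with medians of -0.11 and -0.16. Of all 4402 genes of that brightness, 47.0% and 49.0% were lower, with medians of 0.01 and 0.00. In acute mice 13 of the 21 were lower, with a median of -0.04, where 48.7% of bright genes were. None of the 21 met the series criteria in any comparison, and few genes of that brightness did. Of the 4402, 10 met them as higher and 1 as lower than saline in acute mice. In repeated mice 18 were higher and 16 lower, and in withdrawal mice 15 and 6.

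Saline replicate 1 gave the highest summed intensity of these 21 among the saline arrays, 41375, against 37995 and 38402 on the other two. The acute arrays gave 39684, 41134 and 34878, the repeated arrays 37704, 33727 and 35655, and the withdrawal arrays 35168, 35821 and 36543. The repeated and withdrawal sums lay below all saline sums, while the acute and saline sums overlapped. Without saline replicate 1, a setting chosen after seeing the data, 15 and 18 of the 21 were lower in repeated and withdrawal mice, with medians of -0.08 and -0.07. Bright clustered copies may share signal through near-identical sequence, so the 21 are not independent measurements.

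The 16 clustered H2A genes, whose protein pairs with H2B in the octamer, lay the same way, but many are bright members already counted above. These are H2ac7, H2ac10, H2ac13, H2ac18, H2ac19, H2ac20, H2ac22 and H2ac24. The sets therefore share values, and the H2A genes are not a separate observation. Of the 16, 13 were lower in repeated than in saline mice with a median of -0.18, and 11 in withdrawal mice with a median of -0.11, while 10 were lower in acute mice with a median of -0.03. The median of all genes lay at 0.00 in each, with 50.9%, 51.0% and 50.9% of them lower in the same order.

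H2ac13, a bright member, read 11.65, 11.63 and 11.61 on the saline arrays and 11.47, 11.75 and 11.42 on the acute arrays. It read 11.44, 11.28 and 11.43 on the repeated arrays and 11.40, 11.37 and 11.45 on the withdrawal arrays. The repeated and withdrawal arrays all lay below saline, and acute replicate 2 lay above it. The difference from saline was -0.25 ± 0.10 in repeated mice (SE, limma, adjusted p 0.531) and -0.22 ± 0.10 in withdrawal mice (adjusted p 0.637).

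H2ac7, whose window is shown above, read 10.87, 10.85 and 10.93 on the saline arrays and 10.79, 11.08 and 10.64 on the acute arrays. It read 10.69, 10.51 and 10.64 on the repeated arrays and 10.68, 10.73 and 10.55 on the withdrawal arrays. Again the repeated and withdrawal arrays lay below every saline array and acute replicate 2 above them. The difference was -0.27 ± 0.12 in repeated mice (SE, limma, adjusted p 0.550) and -0.23 ± 0.12 in withdrawal mice (adjusted p 0.655). The second probes lay nearer to saline, at -0.15 ± 0.14 and -0.11 ± 0.14 for H2ac13 and at -0.10 ± 0.15 and -0.20 ± 0.15 for H2ac7.

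Acute replicate 2 was the array with the highest H2A values. The median deviation of the 16 genes from their own means over 12 arrays was 0.31 on it, and between -0.24, on repeated replicate 2, and 0.13, on saline replicate 1, on the other 11. In repeated against acute 15 of the 16 were lower, with a median of -0.18. Without acute replicate 2, again a setting chosen after seeing the data, 10 of 16 were lower, with a median of -0.04.

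**Figure D3:**
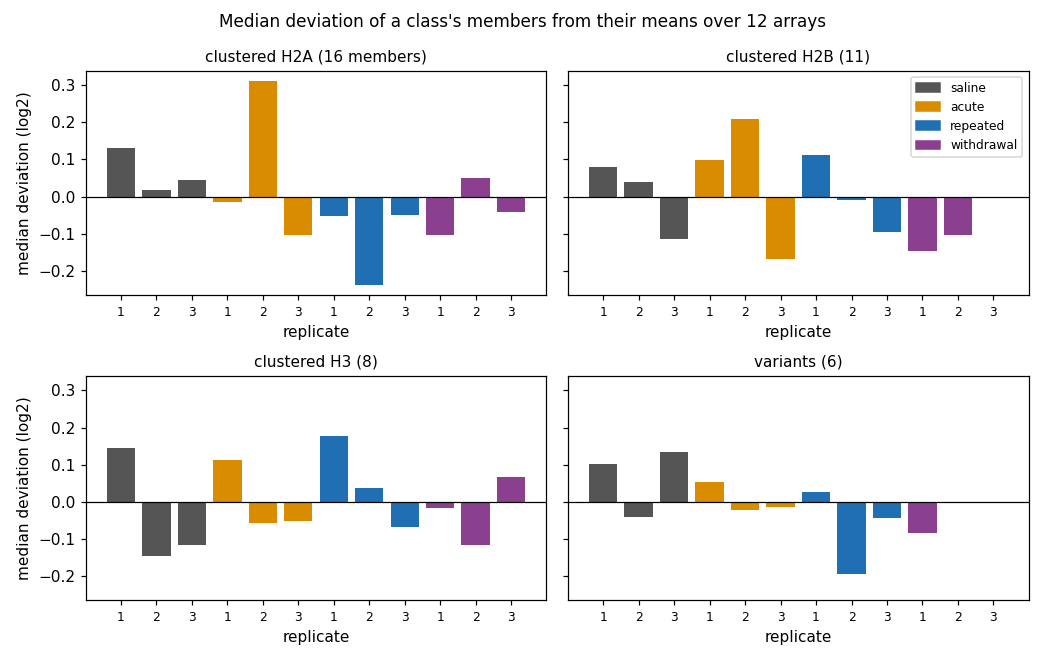
Median deviation (log2, vertical axis) of the members of 4 histone classes from their own means over the 12 arrays, 1 bar for each array, by group and replicate (horizontal axis). The tallest H2A bar is acute replicate 2 at 0.31 and the lowest is repeated replicate 2 at -0.24; all 3 repeated H2A bars lie below all 3 saline H2A bars.

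Counted over all members, the groups did not overlap for 4 in acute against saline, where 7.27% of all genes did not, for 13 in repeated against saline (17.3%) and for 10 in withdrawal against saline (14.9%). Of the 13, 9 were lower in repeated mice, where 9.46% of all genes were: H2ac7, H2ac13, H2ac20, H2ac21, H2ac22, H2ac24, H2az2, H2bc14 and H4c3. Of the 10, 6 were lower in withdrawal mice, where 7.97% of all genes were: H2ac7, H2ac13, H2ac20, H2az2, H2bc6 and H2bc14. The higher ones in repeated mice included H3c4 by 0.26 ± 0.14 and H2aw, an H2A gene on chromosome 11, by 0.24 ± 0.13 (SE, limma, adjusted p 0.627 and 0.603).

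Many clustered H2B genes face H2A genes across shared promoter stretches. In 4 pairs of members the RefSeq windows overlapped by 252 to 277 bases on opposite strands. For H2ac7 and H2bc7 the differences of repeated from saline were -0.27 ± 0.12 and -0.09 ± 0.13 (SE), and for H2ac11 and H2bc11 they were -0.40 ± 0.27 and 0.07 ± 0.13. For H2ac12 and H2bc12 they were -0.10 ± 0.15 and 0.08 ± 0.11, and for H2ac15 and H2bc15 they were -0.17 ± 0.15 and -0.06 ± 0.17. These are values of the brightest probes, and the second probe of H2bc12 lay at -0.18 ± 0.13. In withdrawal mice H2ac15 and H2bc15 lay at -0.09 and -0.13, and the difference between partners was not tested.

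Over the 11 H2B genes the median difference from saline was 0.07, 0.00 and -0.11 in acute, repeated and withdrawal mice, with 3, 5 and 8 of them lower. The brightest probe of H2bc6 differed by -0.24 ± 0.10 in withdrawal against acute (SE, limma, adjusted p 0.848), and its other probes by -0.09 ± 0.11 and -0.08 ± 0.18. Over the 8 clustered H3 genes the medians were 0.03, 0.22 and -0.02. All 8 were lower in withdrawal than in repeated mice, with a median of -0.12, where 49.3% of all genes were lower. These differences ran from -0.43 to -0.0013, the last being that of H3c10 with an SE of 0.12. Over the 11 H4 genes the medians were 0.07, 0.05 and -0.07. By their brightest probes the linker genes H1f2 and H1f10 differed from saline by no more than 0.23 in size in these 3 groups, and H1f10 was furthest from it in withdrawal mice, at -0.23 ± 0.13 (SE, limma, adjusted p 0.671). The second probe of H1f2 lay at -0.24 ± 0.16 in repeated mice. H1f5, detected on 9 arrays, differed from saline by 0.31, -0.38 and -0.09 with an SE of 0.45.

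**Figure D4:**
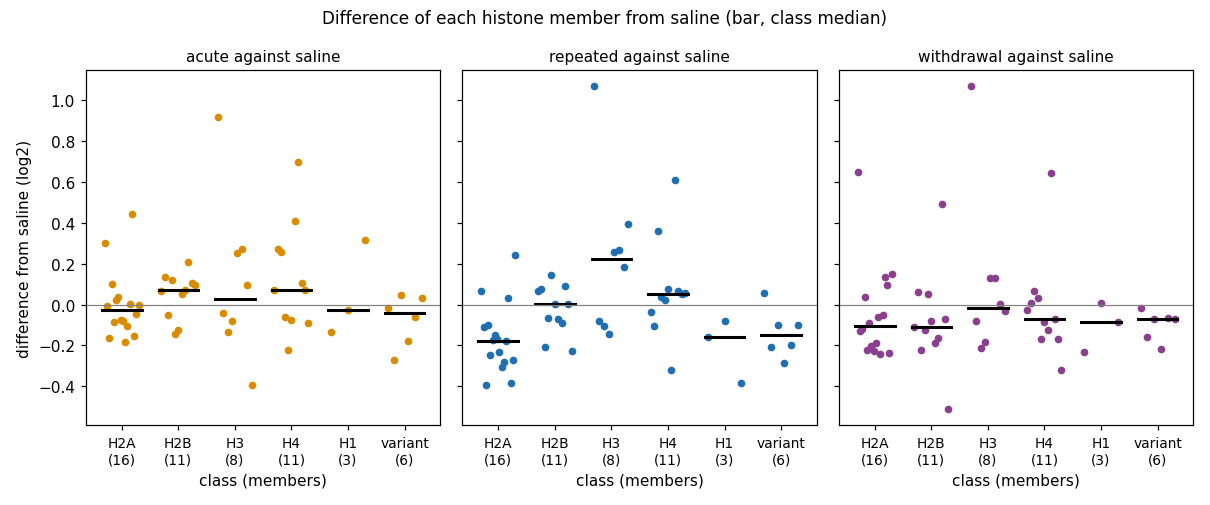
Difference from saline (log2, vertical axis) of histone members by class (horizontal axis, with the number of members), in acute, repeated and withdrawal mice. H2al2a, named for the germ line, is not plotted, and it differed by -0.59 in withdrawal mice. Black bars are class medians. The H2A median is -0.18 in repeated mice, and the highest point in each panel is H3c1.

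By their brightest probes the variants stood at most 0.29 from saline. H2az2, 1 of the 2 genes for H2A.Z, a variant found at promoters, read 9.28, 9.02 and 9.10 on the saline arrays and 9.01, 9.07 and 8.79 on the acute arrays. It read 8.91, 8.74 and 8.89 on the repeated arrays and 8.93, 8.88 and 8.94 on the withdrawal arrays. The repeated and withdrawal arrays lay below every saline array and the acute arrays overlapped with it. The difference from saline was -0.29 ± 0.11 in repeated mice (SE, limma, adjusted p 0.498), -0.22 ± 0.11 in withdrawal mice (0.643) and -0.18 ± 0.11 in acute mice (1).

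H2az1, the other H2A.Z gene, differed from saline by 0.05, -0.10 and -0.07 in acute, repeated and withdrawal mice, each with an SE of 0.10. H3f3a and H3f3b encode the same H3.3 protein. H3f3a differed from saline by -0.06, -0.20 and -0.07 with an SE of 0.11 (its second probe by -0.43 ± 0.29 in repeated mice), and H3f3b by 0.03, -0.10 and -0.07 with an SE of 0.11. The 95% interval of H3f3b in repeated mice ran from -0.35 to 0.15. H2aj, an H2A variant gene on chromosome 6, differed from saline by -0.02, 0.06 and -0.02 with an SE of 0.09. H2ax, whose protein is phosphorylated at DNA breaks, was lower than saline on all 3 acute arrays, by 0.27 on the log2 scale (SE 0.12, limma, adjusted p 1). By the brightest probes all 6 variants were lower in withdrawal than in saline mice, with a median of -0.07, where 51.0% of all genes were lower.

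Of the 20 members with several detected probes, the probes of 7, 9 and 10 differed in sign in the acute, repeated and withdrawal comparisons with saline. The dimmer probe of H3c7 met the series criteria in repeated against saline, and it differed from saline by 0.37, 0.94 and 0.76 with an SE of 0.37, while the brighter probe differed by 0.09, 0.19 and 0.00 with an SE of 0.17. The dimmer probe read 4.52, 3.66 and 5.17 on the saline arrays and 5.71, 5.21 and 5.26 on the repeated arrays, without overlap. For H2ac20 the 2 probes differed from saline in withdrawal mice by -0.19 ± 0.12 and -0.37 ± 0.13 (SE).

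Markers of microglia, of blood, and of ependyma and choroid plexus also lay mostly lower than saline beside the bright members. The lists for other cells did not all share that direction. Of 10 measured microglia markers, 9 were lower than saline in each cocaine group, with medians of -0.11, -0.17 and -0.20. Their summed intensity ranged from 4624 to 5038 on saline, 4209 to 5112 on acute, 4089 to 4713 on repeated and 4174 to 4735 on withdrawal arrays. All 4 measured blood markers were lower than saline in each cocaine group by group means. Their summed intensity was 11838 to 16648 on saline, 12026 to 14575 on acute, 9219 to 11707 on repeated and 9806 to 16136 on withdrawal arrays. The acute and withdrawal sums thus overlapped saline, and Ptprc was detected on 0 arrays.

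Astrocyte markers lay above saline for 7 of 8 genes in repeated and 6 of 8 in withdrawal mice, with medians of 0.05 and 0.04. Markers of newborn neurons and neuroblasts did for 4 of 6 in both. Medians of medium spiny neuron, oligodendrocyte, precursor and vessel markers lay between -0.02 and 0.06 in all 3 comparisons with saline. The 3 measured markers of cortical neurons varied widely between arrays, with summed intensities of 179 to 1637 on saline and 177 to 1154 on repeated arrays, and Neurod6 was detected on 0 arrays. Of 4 measured markers of ependyma and choroid plexus, 4, 3 and 3 were lower than saline in acute, repeated and withdrawal mice. The medians were -0.21, -0.22 and -0.33. These markers summed to 1032 to 1446 on acute arrays, below the 1669.7 to 2063 of saline. The sums of 1079 to 2231 on repeated and 1107 to 2967 on withdrawal arrays overlapped saline. Ttr, a choroid plexus gene, differed by -3.96 ± 1.40 in acute mice (SE). The part of these cells in the histone values was not tested.

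Genes that act on histones or mark S phase were described by their counts. Of 24 measured genes of S phase and proliferation, 13 lay above saline in the acute group, 16 in the repeated group and 19 in the withdrawal group, with medians of 0.04, 0.14 and 0.10. Of all genes 50.9%, 50.9% and 51.0% lay below saline in these groups. Of the 24, 0 met the series criteria against saline, where 2.14%, 3.74% and 2.82% of all genes did. As higher than acute, 1 met them in repeated and 1 in withdrawal mice, where 1.36% and 1.40% of all genes did. The summed intensity of the 24 ranged from 2182 to 2521 on saline, 2339 to 2562 on acute, 2450.5 to 2659 on repeated and 2405 to 2543 on withdrawal arrays. Of 32 genes listed, these 24 were measured, and each array detected 17 to 23 of them. Among the listed genes not measured, markers of cell division such as Ccna2, Ccnb2 and Bub1 were detected on 0 arrays.

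Of 18 measured genes of histone transcription and mRNA 3' end processing, 7 lay above saline in the acute group and 10 in each of the others, with medians of -0.04, 0.03 and 0.01. Npat, a coactivator of clustered histone genes in S phase, met the series criteria, at 0.53 ± 0.23 above saline in repeated mice and 0.82 ± 0.23 above acute (SE, limma, unadjusted p 0.047 and 0.0054). Slbp, which binds the histone mRNA stem-loop, was detected on 0 arrays. Of 28 measured histone chaperones and deposition factors, 13, 14 and 16 were higher than saline, with medians of -0.01, 0.00 and 0.06. Vps72, a chaperone that loads H2A.Z, was the only one to meet the series criteria against saline, at -0.39 ± 0.10 in acute mice, and lay at -0.37 ± 0.10 in repeated and -0.08 ± 0.10 in withdrawal mice (SE, limma, unadjusted p 0.0032, 0.0041 and 0.43). Of all genes 2.14%, 3.74% and 2.82% met these criteria against saline in acute, repeated and withdrawal mice.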

How the data were processed

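Illumina MouseWG-6 v2.0 bead arrays were background subtracted and quantile normalized by the authors in BeadStudio, per the series text, and the deposited intensity values are linear. The deposited table with detection p-values holds quantile-normalized intensity before subtraction, and the other equals it minus a constant of 60.7. Genome build and software version are not given in the sources used here.

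Subtracted intensity was floored at 10 and taken to log2. Probes with a detection p under 0.05 on at least 3 arrays were kept, 25478 of 45281, and the brightest stood for its gene. Symbols came from the platform's annotation table. Limma 3.58.1 in R 4.3.3 fitted all 12 arrays with no covariate, and tests were two-sided. The fit was run on simulated data with an equal spread for every probe and no floor, which cannot speak for dim members. The 3 replicates per group are separate pools of 4 mice, and their number limits the precision. The members and lists were chosen with earlier results of these data known. Members that met the series criteria in any comparison, and the 8 with the smallest F-test p, are given on every array, while other members and probes were named after their values were seen. Folds written as at least compare the brighter group with the lowest detected signal of each array and carry no sampling error.

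Replicate numbers are shared by the groups. Deviations of same-numbered arrays correlated above 0.1 for every number in repeated against saline (0.468, 0.344 and 0.133), withdrawal against saline (0.386, 0.293 and 0.166) and repeated against acute (0.439, 0.246 and 0.261), so a fit with the number as a block was run as an alternative. In acute against saline the correlations for numbers 1, 2 and 3 were 0.459, 0.192 and 0.065. They were 0.402, 0.124 and 0.036 in withdrawal against acute, and 0.414, 0.253 and 0.025 in withdrawal against repeated. The alternatives changed the floor, the detection filter, the subtraction, the block, the probe rule and the variance trend, and left out each array in turn.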

Additional observations from a re-analysis of the deposited data

How the results depend on the processing

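No member passed the adjusted threshold under any of 20 settings. The median differences of the 56 members moved by less than the SD between arrays, 0.098, in all of them. That SD was about the size of the largest of these medians, -0.10, so a small median could change sign and still count as unmoved. None of the 15 differences of single genes that met the series criteria turned direction. These were picked for their size in these data. Where groups do not overlap, leaving out an array cannot turn the direction, so the count is no evidence of stability. The adjusted p of H3c1 against saline ranged from 0.333 to 1, from 0.293 to 0.725 and from 0.15 to 0.931 in acute, repeated and withdrawal mice.

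Counts of members meeting the series criteria depended on dim probes. With a floor of 2 the counts were 2 in withdrawal against saline, 1 in repeated against acute and 0 in withdrawal against repeated. With detection required on all 12 arrays, 46 members were left, H3c1 was not among them, and the counts were 1, 1 and 1 for acute, repeated and withdrawal against saline, 0 in repeated against acute, 0 in withdrawal against repeated and 1 by the F test. With no detection filter they were 1 in repeated against acute, 0 in withdrawal against acute and 0 in withdrawal against repeated. On unsubtracted intensity the count was 0 in all 6 comparisons, since the constant left in every value shrinks folds of dim probes. With a variance trend on intensity they were 2 in withdrawal against saline, 0 in repeated against acute, 0 in withdrawal against repeated and 4 by the F test.

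With the replicate number as a block the counts were 3 in withdrawal against acute and 4 by the F test, and with the arrays numbered 1 against the rest as a block they were 2 and 4; the replicate block changed no other count by over 1.5 times. Leaving out single arrays gave 2 to 4, 2 to 3 and 3 to 5 members against saline in acute, repeated and withdrawal mice. It gave 1 to 3 in repeated against acute, 0 to 4 in withdrawal against acute, 0 to 2 in withdrawal against repeated and 2 to 7 by the F test. The F-test count was 7 without acute replicate 3 and 5 without acute replicate 1. The count in repeated against acute was 1 without saline 3, acute 2, acute 3 or withdrawal 3. In withdrawal against acute it was 4 without acute 1, 3 without acute 3, 2 without withdrawal 2, and 0 without saline 1, saline 3, acute 2, repeated 2, withdrawal 1 or withdrawal 3. In withdrawal against repeated it was 0 without withdrawal 3 and 1 without any saline array, repeated 1, repeated 2, withdrawal 1 or withdrawal 2. The medians without single arrays ranged from -0.04 to 0.09 in acute, from -0.15 to 0.00 in repeated and from -0.12 to -0.04 in withdrawal against saline, from -0.17 to -0.01 and from -0.15 to -0.04 in repeated and withdrawal against acute, and from -0.06 to 0.03 in withdrawal against repeated. The cause of these shifts was not tested unless named.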

Other observations

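Histone variants outside the symbol rule were measured too. Macroh2a2, which encodes a macroH2A, differed from saline by 0.32 ± 0.14 in acute, 0.07 ± 0.14 in repeated and 0.17 ± 0.14 in withdrawal mice (SE, n = 3 arrays per group). Macroh2a1 differed by 0.11, -0.06 and 0.00 with an SE of 0.10. Cenpa, the centromeric H3, differed by 0.15, 0.04 and 0.24 with an SE of 0.16. None of the 3 met the series criteria.

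Over the 12 arrays the genes whose values were most alike those of H3c1 by Pearson correlation were Jak2 (r = 0.94), Atg12 (r = 0.93) and R3hdm1 (r = 0.92), picked as the highest of all detected genes. The arrays share the 3 saline pools that set H3c1 apart, and these values are a description.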
